A study of Mus musculus with 6 samples.

Results

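DNA copy number of 8 p53 pathway genes was followed through 5 mouse malignant mesotheliomas, tumours of the lining of the body cavities. The genes were Atm, Chek2, Trp53, Mdm2, Mdm4, Bax, Bbc3 and Pmaip1. They were taken as the probes whose gene name in the file of the denser ARF-128 array is one of these symbols, and all 8 were found among 24702 genes that lie on 1 autosome each. The genes had 35 probes on the denser array design and 12 of these on the sparser design, joined by probe name. The study profiled tumours of mice heterozygous for Arf, Arf(+/-), to look for copy number changes that recur. On all 6 arrays the labels give Cy5 to the tumour and Cy3 to a C57BL/6J reference, with no dye swap. The 5 tumours belong to 1 group with no treatment. ARF-110 was read on the sparser design, ARF-129, ARF-112 and ARF-104 on the denser one, and ARF-128 on both. The arrays of ARF-128 share a source name and count as 1 tumour, although the denser one is titled ARF-128PlusMinus, which the labels do not explain. Its probes resembled the sparser array less than the denser arrays of ARF-129, ARF-112 and ARF-104 did (r = 0.38 against 0.61 to 0.69). Each probe was taken less the mean of its surroundings, so these r largely leave out changes of whole stretches of chromosome. The denser ARF-128 array also had the highest noise of single probes, an SD of 0.78. Whether both hold the same DNA is not known. In the means, ARF-128 stands by its denser array except where noted.

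The labels call the cells primary mesothelioma cells for every tumour but ARF-104, for which they name no cell type. The study's description gives the genotype for 4 mice while the titles name 5 tumours, and which tumour lies outside is not known. The strain, age and sex of the Arf mice and the share of tumour cells in each DNA sample are not given in the sources used here. DNA of normal tissue from the same mice was not analysed here, so a difference of strain from C57BL/6J and a change in the tumour cannot be told apart. Nothing on a DNA array checks a cell type, because marker genes are read from RNA.

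p53, the product of Trp53, is a transcription factor that halts the cell cycle or starts apoptosis in cells with damaged DNA. Atm is a kinase that senses double-strand breaks and activates the kinase Chek2, and both phosphorylate p53. Mdm2 is the ubiquitin ligase that marks p53 for breakdown, and Mdm4 is its relative that blocks p53's activating domain. Arf, a product of the Cdkn2a locus, binds Mdm2 and so protects p53. Bax permeabilises the mitochondrial membrane, and Bbc3 (Puma) and Pmaip1 (Noxa) are BH3-only proteins that set off this step. Bax, Bbc3 and Pmaip1 are among the genes that p53 switches on.

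The values are log2 ratios of tumour over reference, centred so that the median autosomal probe of each array stands at 0. A gene's value is the mean of its own probes, and an SD follows ± where tumours were averaged. In ARF-110 only the probes of the sparser design enter: 2 each for Atm, Chek2, Trp53, Mdm2 and Mdm4, and 1 each for Bbc3 and Pmaip1. Means, SDs and tests over 5 tumours therefore join unlike sets of probes for every gene but Bbc3, unless shared probes are named. The noise of single probes, an SD taken from neighbouring probes, ranged from 0.15 in ARF-110 to 0.78 on the denser array of ARF-128, whose sparser array had 0.43. This SD also takes in lasting differences between probes, so it is not measurement noise alone. Red signal over background ranged from 4.14 on the denser ARF-128 array to 11.1 in ARF-104. All 164 spots of the 8 genes stood well above background in both colours, 0 were saturated and 0 carried an outlier mark. Precision is limited by the number of arrays. Nothing in the labels says more than a number about the separate animals, so p-values measure the spread between these 5 samples.

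In the 5 genes with 3 or more probes, single probes on the denser design gave values that differed more from each other than the same probe differed between tumours. A selection of probes of these genes that kept one side of 0 on all 4 denser arrays is printed here, with mm7 positions. Sequences are as the array file gives them, in lower case, with nothing marked and with the strand not stated. The printed probes are inner probes of their genes, neither the first nor the last. Other inner probes of Atm and Mdm4 that are not printed also kept one side of 0 on these arrays.
Chek2 probe 2, chr5:110015734-110015793: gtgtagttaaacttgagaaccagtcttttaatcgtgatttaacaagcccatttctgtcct
Chek2 probe 3, chr5:110020608-110020667: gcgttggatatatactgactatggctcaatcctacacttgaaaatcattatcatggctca
Chek2 probe 4, chr5:110024589-110024648: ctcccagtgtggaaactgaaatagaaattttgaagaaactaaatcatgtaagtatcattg
Atm probe 2, chr9:53430308-53430367: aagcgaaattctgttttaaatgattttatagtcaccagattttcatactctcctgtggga
Atm probe 8, chr9:53474469-53474528: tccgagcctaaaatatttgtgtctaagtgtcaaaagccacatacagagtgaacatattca
Atm probe 11, chr9:53491822-53491881: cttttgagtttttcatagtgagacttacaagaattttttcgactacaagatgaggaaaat
Trp53 probe 2, chr11:69665193-69665252: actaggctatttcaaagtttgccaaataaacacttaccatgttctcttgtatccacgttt
Mdm2 probe 2, chr10:117207322-117207381: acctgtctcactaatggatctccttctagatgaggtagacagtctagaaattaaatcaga
Mdm4 probe 6, chr1:132920252-132920311: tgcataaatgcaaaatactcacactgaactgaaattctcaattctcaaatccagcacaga

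Positions are mm7, the build named in the header of the denser ARF-128 file. From first to last probe, Atm (12 probes) spans chr9:53424115-53503088 and Chek2 (6 probes) chr5:110007730-110040105. Trp53 (3 probes) spans chr11:69661635-69672816. Mdm2 (3 probes) spans chr10:117202142-117216614 and Mdm4 (7 probes) chr1:132893225-132925316. Bax has 1 probe at chr7:41639711-41639770, Bbc3 1 probe at chr7:14075410-14075460, and Pmaip1 2 probes within chr18:66851836-66855858. The sparser design lacks a probe for Bax. Whether a probe lies in an exon or an intron was not given in the sources used here.

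Neither kinase upstream of p53 passed the test over the 5 tumours when its probes were averaged, and Chek2 was lowest in ARF-129, at 76.6% of the reference. Atm was 0.05 in ARF-128, -0.13 in ARF-129, -0.15 in ARF-112, -0.15 in ARF-104 and 0.20 in ARF-110. Chek2 was -0.26 in ARF-128, -0.38 in ARF-129, 0.09 in ARF-112, -0.14 in ARF-104 and 0.00 in ARF-110. Each gene thus had tumours on both sides of 0, with the lowest Chek2 values in ARF-129 and ARF-128. The mean of Atm was -0.03 ± 0.16 (SD, n = 5; limma with Benjamini-Hochberg adjustment over all genes, adjusted p = 0.818, 95% confidence interval -0.25 to 0.18). That of Chek2 was -0.14 ± 0.19 (n = 5, limma adjusted p = 0.349, interval -0.37 to 0.09). ARF-110 was read by 2 probes of each gene, against 12 of Atm and 6 of Chek2 on the denser design. Over those 2 Atm probes ARF-129, ARF-112 and ARF-104 averaged -0.51, the denser array of ARF-128 -0.16 and ARF-110 0.20. Their mean over the 5 tumours was -0.30 (limma adjusted p = 0.139). Over the 2 probes that both designs carry, Chek2 averaged -0.55 (limma adjusted p = 0.0362), where 11.8% of all genes passed in the lower direction. With the normexp background correction Chek2 averaged 0.02. That correction was run with an offset of 50 added to both colours, which draws ratios towards 0, and was not run without it. The intervals hold 0, which does not show that copy number was unaltered.

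These averages joined probes that lay on opposite sides of 0. Chek2 probe 2 was -0.33 in ARF-128, -0.77 in ARF-129, -0.26 in ARF-112 and -0.70 in ARF-104. Chek2 probe 3, which starts 4874 bp further on, was 1.02, 0.32, 0.59 and 0.51 in the same order. Chek2 probe 4, another 3981 bp on, was -1.26, -1.04, -0.73 and -0.66. Neighbouring probes therefore stood on opposite sides of 0 in all 4 tumours of the denser design, and each kept its side in every one. On the sparser design, which carries probe 4 and not probes 2 and 3, the readings of probe 4 were -0.11 in ARF-128 and 0.01 in ARF-110.

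Atm showed the same repeated profile over more probes. Atm probe 2 was -0.38 in ARF-128, -1.19 in ARF-129, -0.67 in ARF-112 and -0.62 in ARF-104. Atm probe 8 was 1.05, 0.32, 0.25 and 0.20 in the same order. Atm probe 11, near the other end, was -0.81, -0.95, -0.92 and -0.77. That probe is on both designs, and on the sparser arrays it read 0.32 in ARF-110 and -0.37 in ARF-128. Between the 6 pairs of denser arrays the 12 Atm probes correlated at 0.65 to 0.96, the 6 Chek2 probes at 0.84 to 0.94 and the 7 Mdm4 probes at 0.77 to 0.96. These are descriptions over probes that share a reference DNA and a probe sequence on every array.

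**Figure D1:**
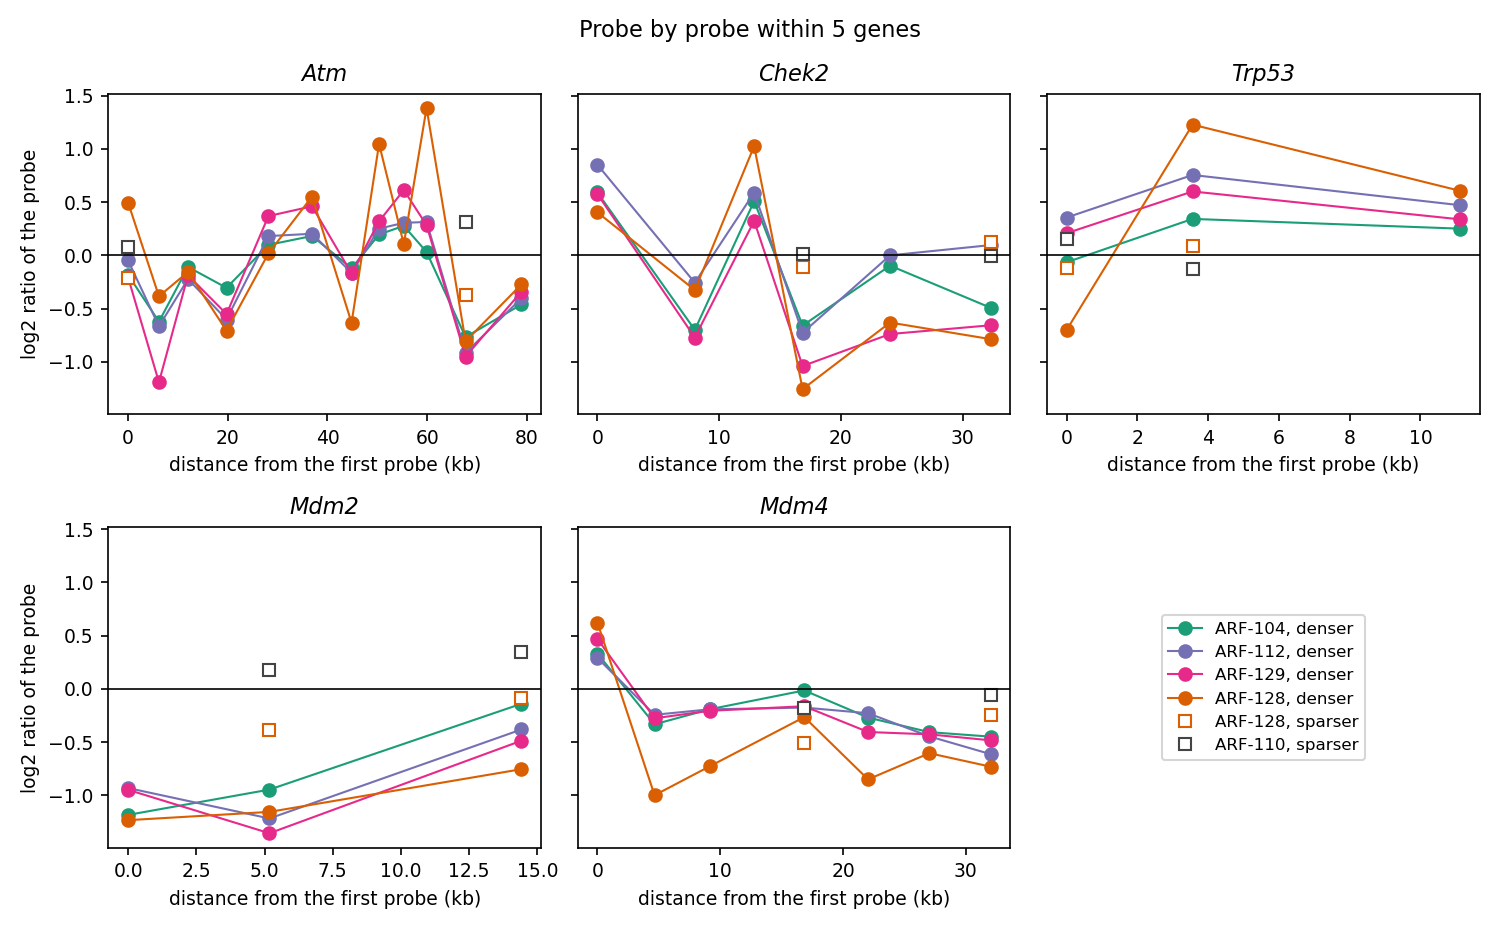
Log2 ratio of each probe (vertical axis) against its distance in kb from the first probe of the gene (horizontal axis) for Atm, Chek2, Trp53, Mdm2 and Mdm4; filled points joined by lines are denser arrays and open squares sparser arrays. The denser arrays trace similar zigzags, with Chek2 probe 3 between 0.32 and 1.02 and its neighbours below 0 on all 4, while the squares lie between -0.51 and 0.35.

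Trp53 had values at or above the reference in all 5 tumours, without passing the test. It stood at 0.38 in ARF-128, 0.38 in ARF-129, 0.53 in ARF-112, 0.18 in ARF-104 and 0.01 in ARF-110. The mean was 0.30 ± 0.20 (SD, n = 5, interval 0.07 to 0.53), and limma's adjusted p was 0.0786. The highest value was in ARF-112 and the value nearest 0 in ARF-110, the tumour read on the sparser design. Over all genes, 14.8% were above 0 in all 5 tumours. Without ARF-110 the mean was 0.37 and limma's adjusted p 0.0462. After the normexp background correction the mean was 0.18 with a limma adjusted p of 0.0394, where 8.73% of all genes passed in the higher direction.

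Probe 2 of Trp53 carried the highest values, with 1.23 in ARF-128, 0.60 in ARF-129, 0.75 in ARF-112 and 0.34 in ARF-104. The same probe read -0.12 in ARF-110 and 0.08 on the sparser array of ARF-128. Probe 1, which is 3558 bp before it, was -0.70 in ARF-128, 0.21 in ARF-129, 0.36 in ARF-112 and -0.06 in ARF-104 on the denser design. In ARF-128 the mean of 3 probes therefore joined -0.70 with 1.23. The SD from neighbouring probes on that array, 0.78, would give the mean of 3 independent probes a standard error of 0.45. That SD also holds levels of single probes that repeated between arrays, so it is not measurement noise alone. None of the segments over Trp53 was called lost or gained in any tumour.

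Mdm2 was the gene with the lowest values among the 8 and the one member that passed the test over the 5 tumours. It stood at -1.05 in ARF-128, -0.93 in ARF-129, -0.84 in ARF-112, -0.76 in ARF-104 and 0.26 in ARF-110. The 4 tumours on the denser design lay close together and far from ARF-110, the single one above 0. The mean was -0.66 ± 0.53 (SD, n = 5, interval -1.08 to -0.25), with a limma adjusted p of 0.0443. It was 1 of 7 members tested against 0 that passed in the lower direction, where 6.73% of all genes did, and 0 of 7 passed in the higher direction, where 8.12% did. Of those 7 members, 4 in all had an unadjusted p under 0.05 by limma, and Mdm2 was the smallest at 0.0057.

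Whether Mdm2 passed depended on the tumours in the fit and on the setting. Limma's adjusted p was 0.00514 without ARF-110, in a fit where 10.7% of all genes passed in the lower direction. It was 0.125 without ARF-104, 0.141 without ARF-112, 0.0567 without ARF-128 and 0.170 without ARF-129. The mean was -0.64, -0.62, -0.57 and -0.60 in the same order, against -0.66 over all 5 tumours. Scan day as a random block gave a mean of -0.59 and a limma adjusted p of 0.148. Except without ARF-110, the share of all genes that passed in these fits is not given here. A loss particular to Mdm2 and one shared by all genes therefore cannot be told apart. After the normexp background correction, whose offset of 50 draws ratios towards 0, the mean was -0.12, with a limma adjusted p of 0.299. The part of the offset in this change was not tested. Both sparser arrays were scanned on day 1, ARF-129, ARF-112 and ARF-104 on day 2 and the denser array of ARF-128 on day 3, so design and scan day cannot be told apart.

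The low Mdm2 values belonged to its own probes and not to the stretch around them. Probes within 1 Mb on either side of Mdm2 had means of -0.07 in ARF-128, 0.04 in ARF-129, 0.02 in ARF-112, -0.06 in ARF-104 and 0.27 in ARF-110. Mdm2 minus these flanks was -0.97, -0.97, -0.86, -0.70 and -0.00 in the same order. The mean difference was -0.70 ± 0.41 (SD, n = 5, interval -1.06 to -0.34), with a limma adjusted p of 0.0373. It was 1 of 7 members that passed in the lower direction against flanks, where 8.55% of all genes did. No member of the 7 passed in the higher direction, where 8.74% of genes did; 5 of the 7 had an unadjusted p under 0.05 in either direction by limma. Without ARF-104 limma's adjusted p was 0.130, without ARF-112 0.140 and without ARF-129 0.143, and 0.342 with the scan-day block. The mean differences in these fits were -0.70, -0.66, -0.63 and -0.61, and the share of all genes that passed is not given here. After the normexp background correction the difference was -0.19, with a limma adjusted p of 0.0297, where 7.98% of all genes passed in the lower direction.

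Probe by probe, Mdm2 probe 1 was -1.23 in ARF-128, -0.95 in ARF-129, -0.93 in ARF-112 and -1.18 in ARF-104. Probe 2 was -1.16, -1.36, -1.22 and -0.95 in the same order, and probe 3 was -0.75, -0.49, -0.38 and -0.14. On the sparser design probe 2 read 0.18 in ARF-110 and -0.39 in ARF-128, and probe 3 read 0.35 and -0.09. On the arrays labelled ARF-128 the 2 shared probes averaged -0.95 on the denser and -0.24 on the sparser array. Mdm2 thus differed by 0.72 between the arrays that carry this label.

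Mdm4, the other inhibitor of p53, was below 0 in every tumour and did not pass the test. Its values were -0.51 in ARF-128, -0.21 in ARF-129, -0.23 in ARF-112, -0.19 in ARF-104 and -0.12 in ARF-110. The mean was -0.25 ± 0.15 (SD, n = 5, interval -0.46 to -0.04), and limma's adjusted p was 0.0917. After the normexp background correction the mean was -0.08. Over all genes, 17% were below 0 in all 5 tumours. Its first probe stood on the other side of 0 from the rest, at 0.62 in ARF-128, 0.47 in ARF-129, 0.29 in ARF-112 and 0.33 in ARF-104, while the other 6 probes were below 0 on all 4 denser arrays. Mdm4 probe 6, for one, read -0.60, -0.43, -0.45 and -0.41 in the same order. In ARF-128 its 2 shared probes averaged -0.50 on the denser and -0.38 on the sparser array.

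The 3 genes that p53 switches on had values at or above 0 in most tumours. Bax, read by 1 probe on the denser design, was 0.44 in ARF-128, 0.73 in ARF-129, 0.50 in ARF-112 and 0.83 in ARF-104. Bbc3, also read by 1 probe, was 0.44 in ARF-128, 0.13 in ARF-129, 0.31 in ARF-112, 0.17 in ARF-104 and 0.01 in ARF-110. Pmaip1 was 0.49, 0.19, 0.36, 0.23 and -0.04 in that order. ARF-110 gave the lowest value of both Bbc3 and Pmaip1. For Pmaip1 the value of ARF-110 is that of probe 1 alone, because the sparser design lacks probe 2. On probe 1 itself ARF-104 (-0.07) and ARF-129 (-0.05) were lower than ARF-110 (-0.04).

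The means were 0.21 ± 0.17 for Bbc3 (n = 5, limma adjusted p = 0.15) and 0.25 ± 0.20 for Pmaip1 (n = 5, limma adjusted p = 0.119). After the normexp background correction they were 0.06 and 0.07, and the differences of these genes from their flanks fell from 0.30 to 0.07 for Bbc3 and from 0.23 to 0.02 for Pmaip1. Bax could be fitted only over the 4 tumours of the denser design, where it was 0.62 ± 0.18 (n = 4, limma adjusted p = 0.0118). In that fit 11.4% of all genes passed in the higher direction. The 2 probes of Pmaip1 differed: the second was 0.57 in ARF-128, 0.43 in ARF-129, 0.61 in ARF-112 and 0.53 in ARF-104, and the first 0.41, -0.05, 0.10 and -0.07. Bbc3 was the member whose probe read most alike on both arrays of ARF-128, at 0.44 on the denser and 0.45 on the sparser one. The file of the sparser design places this probe on an unplaced part of chromosome 7, in a build that was not given in the sources used here.

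**Figure D2:**
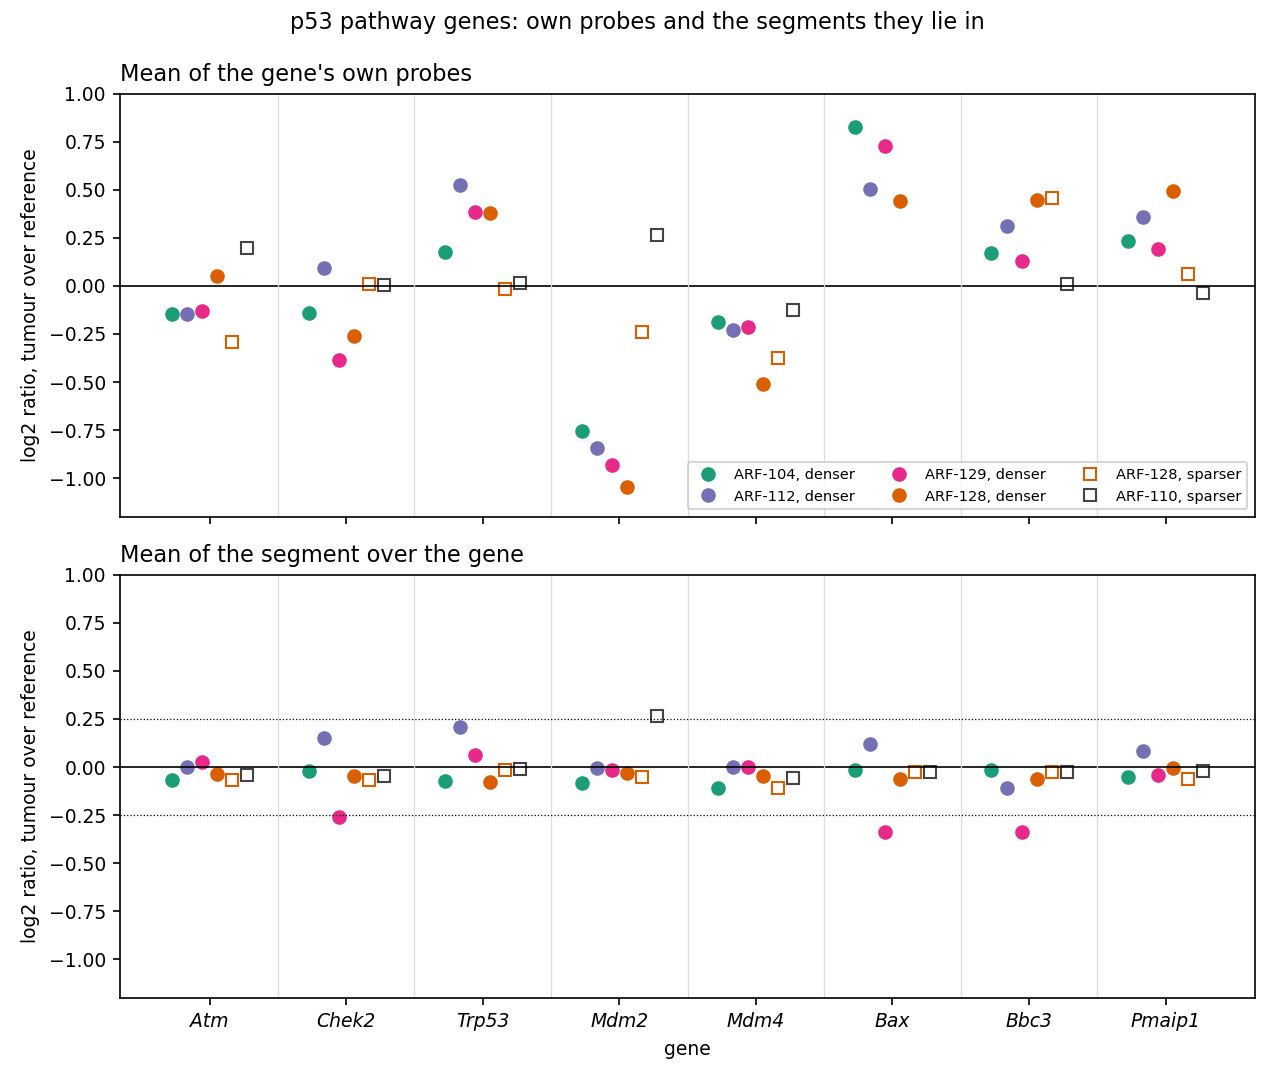
Log2 ratio of tumour over reference for each of the 8 genes on each array (filled circles, denser design; open squares, sparser design), as the mean of the gene's own probes (top) and as the mean of the segment over it (bottom, dotted lines at 0.25 and -0.25). Mdm2 lies between -1.05 and -0.76 on the denser arrays by its own probes, while its segments on those arrays lie between -0.08 and -0.01.

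Measured against their flanks in the 4 tumours of the denser design, 6 of the 8 genes passed. Mdm2 (-0.88, limma adjusted p = 0.00745) and Mdm4 (-0.27, 0.0432) were lower, where 16.2% of all genes passed. Higher were Bax (0.66, limma adjusted p = 0.0147), Trp53 (0.32, 0.0250), Bbc3 (0.37, 0.0234) and Pmaip1 (0.29, 0.0308), where 16.4% of all genes passed. Atm at -0.05 and Chek2 at -0.08 did not pass. In the 3 denser tumours other than ARF-128 the same 2 lower and 4 higher genes passed, where 27% of all genes passed in the lower and 29.3% in the higher direction. With ARF-110 in the fit, 4 of these genes had limma adjusted p-values of 0.0568 for Bbc3, 0.0609 for Mdm4, 0.0647 for Trp53 and 0.0829 for Pmaip1. When ARF-128 entered that fit as the mean of both its arrays, all 4 of these passed, where 17.3% of all genes did in the lower and 18.5% in the higher direction. In ARF-110 itself the difference from the flanks was within 0.08 of 0 for Chek2, Trp53, Mdm2, Mdm4, Bbc3 and Pmaip1, and 0.23 for Atm.

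**Figure D3:**
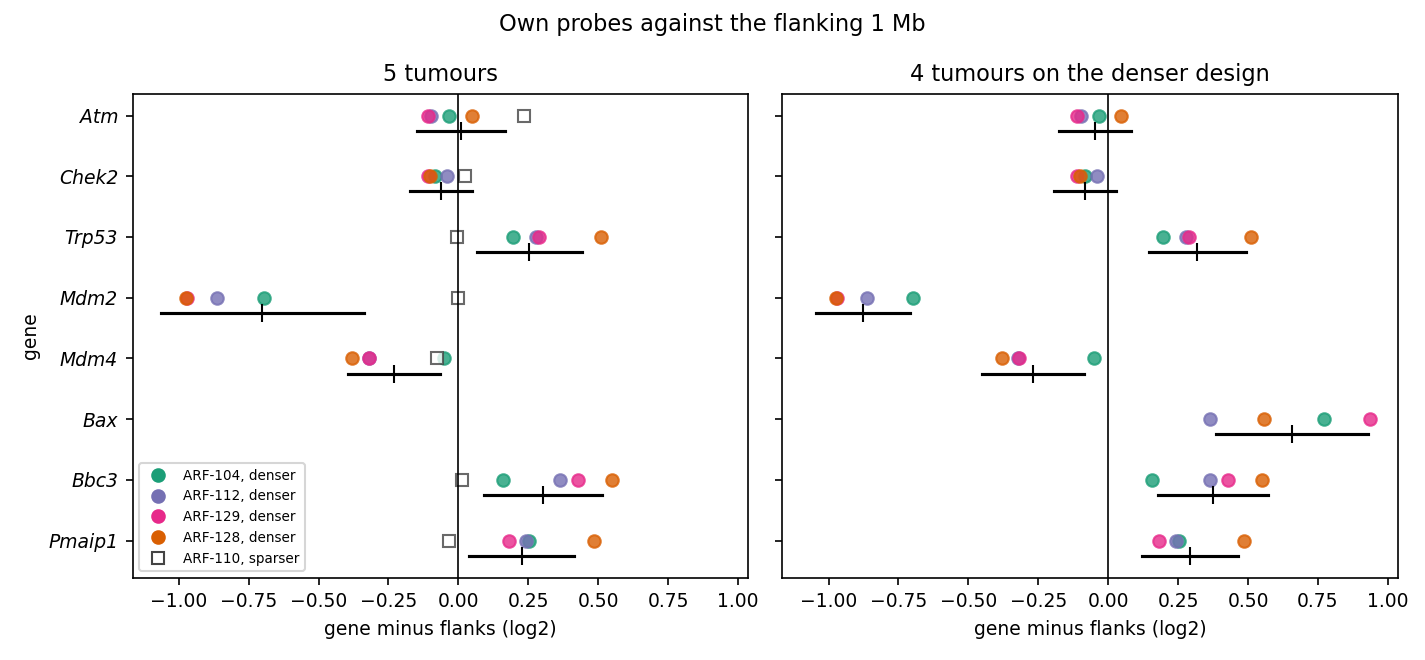
Difference between a gene's own probes and the probes within 1 Mb on either side (horizontal axis, log2) for each tumour, in all 5 tumours (left) and in the 4 tumours of the denser design (right); black bars are limma's 95% confidence intervals and the tick their mean. The square of ARF-110 lies near 0 for 6 genes, whereas Mdm2 lies between -0.97 and -0.70 in the other tumours. Bax has no probe on the sparser design and is drawn on the right only.

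Seen over whole stretches of chromosome, few of these loci were altered. Chromosomes were divided into segments of probes with a common mean, and a gene was called gained or lost where the segment over it reached 0.25 or -0.25. Of 40 pairs of a gene and a tumour, 1 was gained and 3 were lost. Over all genes 14.2% of such pairs were gained and 8.94% lost. The gain was that of Mdm2 in ARF-110, at 0.27, where 13.7% of all genes were called gained, in a segment of chromosome 10 from 17538860 to 129866929. It is the same locus whose own probes were lowest in the other 4 tumours, where its segments stood between -0.08 and -0.01.

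All 3 losses were in ARF-129, in which 28.2% of all genes were called lost. Chek2 lay in a segment at -0.26, from 108671468 to 150670024 on chromosome 5, and its own probes averaged -0.38. Bax and Bbc3 lay in 1 segment at -0.34, from 3049177 to 44214171 on chromosome 7. Their own single probes read 0.73 and 0.13 in that tumour, on an array with a probe noise of 0.49, and so stood on the other side of 0 from their segment. The nearest values inside the limit were -0.26 for Chek2 in ARF-129 and 0.27 for Mdm2 in ARF-110, and the nearest outside was Trp53 in ARF-112 at 0.21. Atm, Trp53, Mdm4 and Pmaip1 were called in no tumour. The segment over Cdkn2a was called lost in ARF-128 (-0.66), ARF-129 (-0.62), ARF-112 (-0.56) and ARF-104 (-3.30), and stood at -0.19 in ARF-110.

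Across all 35 probes, the side a probe took was largely repeated. On the 4 denser arrays 30 of the 35 stood on the same side of their gene's flanks every time, 13 above and 17 below. Of all autosomal probes, 63.3% stood on the same side of their surroundings on all 4. On the 3 denser arrays other than that of ARF-128 it was 31 of the 35, against 80.4% of all autosomal probes. The 5 members' probes that changed side were probes 1 and 3 of Atm, probe 1 of Trp53, probe 4 of Mdm4 and probe 1 of Pmaip1. Within a gene, the SD between the probes' mean values was 0.47 for Atm, 0.64 for Chek2, 0.39 for Trp53, 0.40 for Mdm2 and 0.35 for Mdm4. The median SD of one probe over the 4 tumours was 0.23, 0.21, 0.32, 0.22 and 0.22 in the same genes. Over 13022 genes with 3 or more probes these medians were 0.44 and 0.24, close to the values of the 5 genes. The probes had a median GC content of 36.7%, the same as all autosomal probes. What sets a probe's own level was not tested.

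The 12 shared probes allowed the designs to be set side by side on the arrays labelled ARF-128, as far as both hold the same DNA. Chek2 averaged -1.02 over its 2 shared probes on the denser array and 0.01 on the sparser one. Trp53 averaged 0.26 and -0.02, and Atm -0.16 and -0.29. The median absolute difference over the 12 probes was 0.62, against 0.53 over 40276 shared autosomal probes. The 12 probes correlated at r = 0.46 between the arrays, and all shared probes at 0.41. Opposite signs were found at 2 of the 12 probes, and at 36.6% of all shared probes. There is 1 array of each kind, so the difference has no replicate check, and design, DNA and scan day cannot be told apart in it.

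The denser array of ARF-128 was also the least like the other denser arrays. Over all autosomal probes, each less the mean of its surroundings, it correlated at 0.60 to 0.67 with the other denser arrays, which correlated at 0.87 to 0.89 among themselves. The sparser array of ARF-128 correlated at 0.38 with the denser array labelled as the same tumour and at 0.61 to 0.69 with the denser arrays of ARF-129, ARF-112 and ARF-104. ARF-110 correlated at 0.57 with the sparser array of ARF-128 and at 0.17 to 0.39 with the denser arrays. Over the 12 shared probes of the members alone, ARF-110 correlated at -0.12 with the sparser array of ARF-128 and at -0.37 to -0.22 with the denser arrays. Replacing the denser array of ARF-128 by its sparser one left Mdm2 at -0.50 (n = 5, limma adjusted p = 0.0389). The segment over Atm ended at 82109313 on the denser and at 81852596 on the sparser array of ARF-128. It ended at 78560520 in ARF-129 and at 123827707 in ARF-112, ARF-104 and ARF-110. Whether both arrays of ARF-128 hold the same DNA was not tested.

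**Figure D4:**
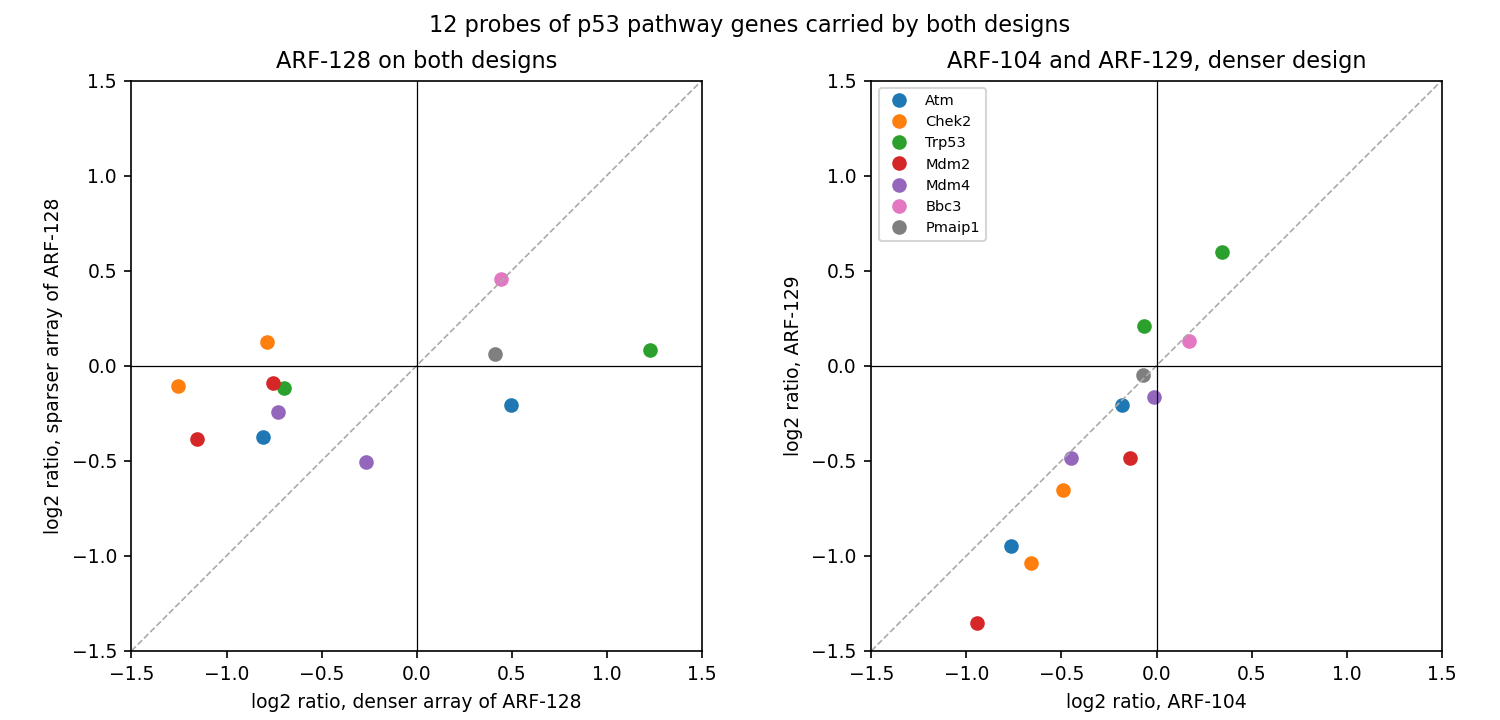
Log2 ratios of the 12 probes that both designs carry, on the denser (horizontal) and sparser (vertical) array of ARF-128 at left and on the denser arrays of ARF-104 (horizontal) and ARF-129 (vertical) at right; 1 point is 1 probe, coloured by gene, and the dashed line marks equal values. At left the 2 Chek2 probes lie at -1.26 and -0.79 on the denser array and at -0.11 and 0.12 on the sparser one, while at right most points lie near the line.

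The genes whose values over the 5 tumours were nearest to those of Mdm2, by Euclidean distance among 13615 genes on other chromosomes, were Htatip2, Thyn1 and Gpr22. Htatip2 on chromosome 7 stood at -1.14 in ARF-128, -0.87 in ARF-129, -0.75 in ARF-112, -0.69 in ARF-104 and 0.01 in ARF-110. Thyn1 on chromosome 9 was at -0.04 in ARF-110 and at -1.13 to -0.77 in the other tumours. Gpr22 on chromosome 12 was at -0.10 in ARF-110 and at -1.11 to -0.67 in the others. All 3 were picked by their nearness to Mdm2 in these same values. Their low values on the denser arrays and values near 0 in ARF-110 therefore follow from the choice. Each has 2 probes on the denser design.

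Of 63 further names of the p53 pathway, which include synonyms, 55 had probes on 1 autosome and 50 could be tested in all 5 tumours. Against 0, limma called 1 of the 50 lower (2%, against 6.73% of all genes) and 4 higher (8%, against 8.12% of all genes) at an adjusted p under 0.05, so the share of higher calls was that of all genes and the share of lower calls was below it. Ccne1, a cyclin of entry into S phase, was lower at -0.42 ± 0.28. Higher were Cycs, the cytochrome c that mitochondria release in apoptosis (0.82 ± 0.36), Gadd45a, a growth arrest gene (0.72 ± 0.38), Rrm2b, a subunit of ribonucleotide reductase (0.46 ± 0.13), and Hipk2, a kinase of p53 (0.31 ± 0.13), each with n = 5. The median of the 50 was 0.08, and that of all genes -0.01.

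Against flanks, limma called 0 of the 50 lower, where 8.55% of all genes were, and 3 higher (6%, against 8.74% of all genes). At an unadjusted p under 0.05, 10 were lower and 11 higher by limma. The 3 called higher were Gadd45a (0.66 ± 0.39), Cycs (0.55 ± 0.38) and Ppm1d, a phosphatase that shuts off p53 (0.30 ± 0.10), while Rrm2b stood at 0.02 ± 0.19. Gadd45a was read by 1 probe and Cycs by 2. The median of the list was 0.02 and that of all genes -0.00. By segments, 42 of 275 pairs of these genes and tumours were gained (15.3%, against 14.2% over all genes) and 20 lost (7.27%, against 8.94%), shares near those of all genes. All calls of this list against 0 and against flanks were lost without ARF-104, without ARF-112, without ARF-129, or with the scan-day block. Cdkn2a, the source of Arf, averaged -1.25 ± 1.21 over its own probes (n = 5, limma adjusted p = 0.0584), from -3.30 in ARF-104 to -0.14 in ARF-110. Without ARF-104 its mean was -0.74 ± 0.45 (n = 4, limma adjusted p = 0.0678), and without ARF-110 it was -1.53 ± 1.20 (n = 4, limma adjusted p = 0.0318), where 10.7% of all genes passed in the lower direction.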

How the data were processed

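Per the file headers, the authors read out the scans with Agilent Feature Extraction, version 8.5.1.1 on the sparser design, 9.5.3.1 for the denser ARF-128 array and 9.1.3.1 elsewhere, which gave each spot's processed intensity in red and green. The deposited value table holds uncentred ratios, in log10 for the sparser and log2 for the denser design, as comparison with the scanner files showed; column medians ran from 0 to 0.0491.

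Each probe's log2 ratio of those intensities was computed without outlier spots, and the autosomal median of the array was subtracted. Gene values, and gene values minus probes within 1 Mb (at least 5), were tested against 0 with limma 3.58.1 (intercept, eBayes) and Benjamini-Hochberg adjustment over all genes, 19903 and 19801 respectively. This leaves out the spread of the reference. PELT segmentation used a penalty of 5 log n and segments of 5 probes or more. Fit and segmentation were tested on simulated data. Software was matplotlib 3.10.9, numba 0.67.0, scipy 1.17.1, pandas 2.3.3, numpy 2.4.6, Python 3.11.15, statmod 1.5.0 and R 4.3.3.

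The members, lists and rules were chosen with earlier results of these data known. All 8 members are named, with pathway genes past an adjusted p of 0.05 (up to 4 a direction), Cdkn2a, and the 3 genes most like a member that passed against 0. Alternatives were other background corrections, ratio sources, arrays, probes, flanks, thresholds and tumours left out; the deposited value table and a fit of the 3 denser tumours other than ARF-128 were added after seeing the data.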

Additional observations from a re-analysis of the deposited data

Results flagged for a closer look

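Of 16 groups of values checked, 2 for each gene, 3 held a tumour whose gap to its nearest neighbour, divided by the group's range, exceeded Dixon's critical value for its size. Chance flags about 1 in 20 groups, and the groups share tumours and probes. Mdm2 in ARF-110 stood at 0.26, with the nearest tumour at -0.76. Mdm2 minus its flanks in ARF-110 stood at -0.0016, with the nearest tumour at -0.70. ARF-110 is the tumour read on the sparser design alone, and the sparser array labelled ARF-128 gave -0.24 over 2 probes that read -0.95 on the denser array with that label. Mdm4 in ARF-128 stood at -0.51, with the nearest tumour at -0.23, on the array with the highest probe noise, 0.78. The part of design and noise in these values was not tested.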

How the results depend on the processing

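Members lower against 0 numbered 1. They numbered 0 with the normexp background correction or scan day as a random block, 2 with probes shared by both designs (Mdm2 and Chek2), and 0 to 1 with 1 tumour left out. Of all genes, 6.73% were lower in the main fit, 11.8% with shared probes and 10.7% without ARF-110. Members higher against 0 numbered 0, then 1 with normexp (Trp53) and 0 to 2 with 1 tumour left out. The shares of all genes were 8.12% in the main fit, 8.73% with normexp and 11.4% without ARF-110. Members lower against flanks numbered 1, then 0 with scan day as a block, 2 with the sparser ARF-128 array, the mean of both ARF-128 arrays, shared probes or flanks of 2 Mb, and 0 to 2 with 1 tumour left out. The shares of all genes were 8.55% in the main fit, 17.3% with the mean of both arrays, 13.1% with shared probes and 16.2% without ARF-110. They are not given here for the sparser ARF-128 array or flanks of 2 Mb. Members higher against flanks numbered 0, then 1 with the sparser ARF-128 array or flanks of 2 Mb, 3 with the mean of both arrays, and 0 to 4 with 1 tumour left out. Here the shares of all genes were 8.74% in the main fit, 18.5% with the mean of both arrays and 16.4% without ARF-110. Where the share of all genes is given, higher member counts against flanks came with higher shares of all genes. Among the fits with 1 tumour left out, the one without ARF-110, which tests 8 members with Bax in place of 7, gave the highest of each of these 4 counts. In the 3 denser tumours other than ARF-128, also with Bax, 2 members were higher against 0, where 16.7% of all genes were. Against flanks 2 were lower and 4 higher, where 27% and 29.3% of all genes were. Atm reversed against 0 with normexp (0.0043), without centring (0.0013) and with scan day as a block (0.0056). Against flanks Atm, 0.01, reversed to -0.0016 with normexp, -0.046 with the sparser ARF-128 array, -0.019 with the mean of both, -0.040 with the median over probes, -0.22 with shared probes -0.0015 with flanks of 0.5 Mb and -0.081 in the 3 denser tumours other than ARF-128; with 1 tumour left out it ran from -0.049 to 0.038, below 0 without ARF-110 or ARF-128. Chek2 reversed with normexp, to 0.020 against 0 and 0.016 against flanks. Segment gains, 1, became 3 at a threshold of 0.15 and 0 at 0.35, and 0 to 1 with 1 tumour left out. Segment losses, 3, became 0 at 0.35 or with normexp, and 0 to 3 with 1 tumour left out.

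In the wider list, lower calls against 0, 1, became 5 with the sparser ARF-128 array, 6 with the mean of both, 9 with shared probes, 0 with GC correction or the scan-day block, and 0 to 5 with 1 tumour left out. With shared probes the list's share was 18%, against 11.8% of all genes. Without ARF-110 it was 9.09%, against 10.7%. Shares of all genes against 0 are not given here for the sparser array or the mean of both. Higher calls, 4, became 7 with normexp or the sparser array, 9 with the mean of both, 0 with the block and 0 to 5 with 1 tumour left out. Against flanks lower calls, 0, became 1 with normexp or the median over probes, 4 with the sparser array, 11 with the mean, 5 with shared probes, and 0 to 6 with 1 tumour left out. Higher calls, 3, became 7 with the sparser array or shared probes, 9 with the mean, 0 with the block, and 0 to 12 with 1 tumour left out. With the mean of both arrays 22% of the list was lower and 18% higher, against 17.3% and 18.5% of all genes. Without ARF-110 it was 10.9% lower and 21.8% higher, against 16.2% and 16.4%. With shared probes 10% of the list was lower, against 13.1% of all genes. In the 3 denser tumours other than ARF-128 the list had 7 lower and 9 higher calls against 0, out of 55. These are 12.7% and 16.4%, near the 12.8% and 16.7% of all genes. Against flanks it had 16 lower and 16 higher, 29.1% each, where 27% and 29.3% of all genes passed. The causes were not tested. The other alternatives kept each count within 1.5 times its value, among them the deposited value table. No paired analysis was possible because all tumours form 1 group. Few probes (1 to 12 a gene) and the reference shared by all arrays limit single genes.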
